A study of Rattus norvegicus with 9 samples.

Results

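Npc2 is 1 of the 31786 transcripts counted in poly-A mRNA of rat dorsal hippocampus. It was followed here through row ENSRNOT00000016076, which the study pairs with the gene Npc2 and lists among its epilepsy-related genes. The study picked it for a difference between PILO and CTRL rats in these same libraries, so the PILO and CTRL values below describe the gene and test nothing. Its row is unique, in that 0 other transcripts had identical counts in all 9 libraries.

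The animals were male Wistar rats, 3 in each of 3 groups, with 1 library per animal and no pooling. CTRL rats were given methyl scopolamine and saline and ate a standard diet. PILO rats were given methyl scopolamine and then pilocarpine (340 mg/kg), a muscarinic agonist that brings on status epilepticus, and also ate a standard diet. PILO+KD rats were treated with pilocarpine in the same way and were put on a ketogenic diet (rich in fat, poor in carbohydrate) after status epilepticus. A rat with no status epilepticus could receive a further, smaller dose of pilocarpine, and status epilepticus was stopped with diazepam. The observation period was 84 days and controls were matched for age. Control rats on the ketogenic diet were not analysed here, so the diet was seen only in pilocarpine-treated animals.

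Npc2 is a small soluble protein of late endosomes and lysosomes. It picks up unesterified cholesterol released from endocytosed lipoproteins and hands it to the membrane protein NPC1, from which cholesterol leaves the lysosome. In Niemann-Pick disease type C, where either protein is lost, cholesterol and sphingolipids collect in lysosomes, neurons degenerate and seizures are frequent. In the brain, glial cells release cholesterol in lipoproteins and also digest the debris of dying cells in their lysosomes.

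For orientation, the RefSeq sequence upstream of the Npc2 start site is shown, with CCAAT boxes (CCAAT on either strand, a common promoter element) in capitals. It is the 250 bases before the start at chr6:110149246-110149495 of build GRCr8, on the minus strand and read 5′ to 3′. Neither methylation nor factor binding was analysed here.
Npc2 upstream region: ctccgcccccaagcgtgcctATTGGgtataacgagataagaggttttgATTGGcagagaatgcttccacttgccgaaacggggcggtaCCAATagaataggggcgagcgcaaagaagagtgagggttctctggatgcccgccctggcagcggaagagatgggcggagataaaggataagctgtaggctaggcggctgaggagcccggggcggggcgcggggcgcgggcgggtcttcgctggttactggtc
The region held 60.8% G and C and 20 CpG dinucleotides, where the medians over 33469 rat upstream regions of the same length were 51.2% and 5. It held CCAAT 3 times, and of those regions 34.0% held it at least once and 2.52% at least 3 times. GGGCGG on either strand, the GC box, occurred 6 times, without overlap with a CCAAT match, and 30.5% of regions held it at least once and 0.825% at least 6 times. CACGTG, the E-box core that many lysosomal gene promoters carry, occurred 0 times (5.59% of regions held it), as did TATAAA (12.9%), which says only that these letters are not in this window.

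Npc2 was lowest in CTRL, intermediate in PILO+KD and highest in PILO, and no library of any group overlapped with another group. Levels are in CPM, that is counts divided by library size, with libraries scaled by the trimmed mean of M-values (TMM). In CTRL replicates 1 to 3 Npc2 was counted 1902, 1150 and 2040 times, which gave 91.8, 76.9 and 86.8 CPM (mean 85.2 ± 7.58, SD, n = 3). In PILO+KD replicates 1 to 3 it was counted 3223, 2382 and 1615 times, which gave 138, 119 and 152 CPM (mean 136 ± 16.7, SD, n = 3). All 3 PILO+KD libraries thus lay above the highest CTRL library. In PILO replicates 1 to 3 it was counted 2974, 5213 and 3528 times, which gave 164, 211 and 206 CPM (mean 194 ± 25.6, SD, n = 3). The lowest of these, PILO replicate 1, still lay above the highest PILO+KD library, replicate 3, but by 12.5 CPM only, less than the SD within either group.

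**Figure D1:**
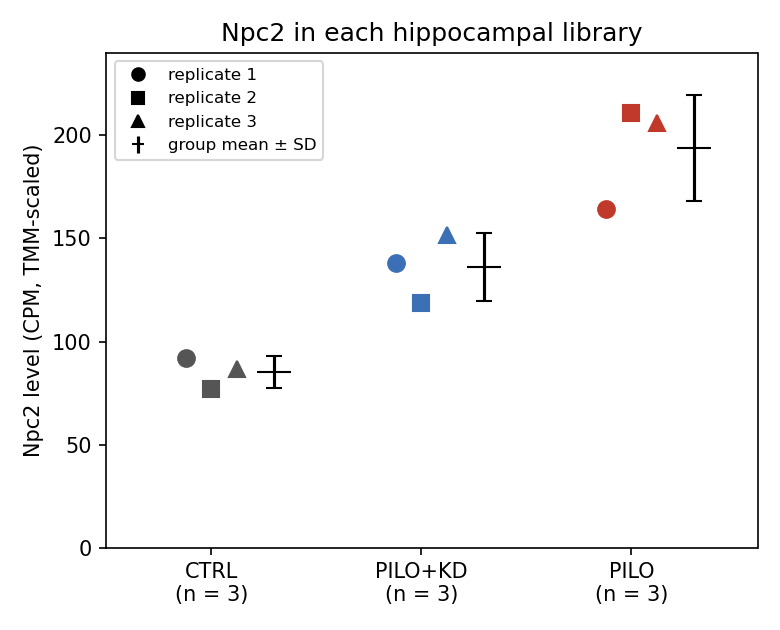
Npc2 level in CPM (TMM-scaled, linear axis from 0) in each of the 9 libraries, by group, with symbols for replicates 1 to 3 and the group mean ± SD beside them. The CTRL libraries sit between 76.9 and 91.8 CPM, the PILO+KD libraries between 119 and 152 CPM and the PILO libraries between 164 and 211 CPM.

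This order of the groups was kept under each of the 3 scalings tried. With library totals alone the PILO+KD libraries came closest to the PILO libraries, at 163 CPM for the highest PILO+KD and 167 CPM for the lowest PILO library, against 115 CPM for the lowest PILO+KD and 92.2 CPM for the highest CTRL library. With the size factors of relative log expression (RLE) the corresponding values were 152, 164, 119 and 91.8 CPM. The complete order, CTRL below PILO+KD below PILO without overlap, was found at 107 of 22283 transcripts (0.48%). Npc2 shared it with 1 of the other 23 study genes used here, Apobec1, a cytidine deaminase that edits RNA. Only the 8 study genes higher in PILO than in CTRL, Npc2 among them, could show this order. Apobec1 was low, at 2.68 CPM in CTRL replicate 2 and 2.89 CPM in PILO+KD replicate 2, where these groups came closest. The reverse order without overlap was found at 134 transcripts (0.601%), among them 2 study genes, Pcdh19 and Ncoa1.

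Within a group Npc2 varied little. The coefficient of variation was 8.90% in CTRL, 12.2% in PILO+KD and 13.2% in PILO. Counting error alone came to between 1.39% and 2.95% per library, less than this spread. Pooled over the groups, the SD of log2 CPM was 0.17 (6 residual degrees of freedom). Of the 2249 transcripts whose mean count was within 2-fold of that of Npc2 (2670 counts per library), 22.4% had a smaller SD, and their median was 0.26.

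Total counts ranged from 9904067 to 24092617 per library, and 2 of the libraries stood apart. PILO+KD replicate 3 was the shallowest and carries another flow cell label than the other 8 libraries. It held the highest Npc2 level of its group, and without it the PILO+KD libraries lay at 138 and 119 CPM. PILO replicate 3 had the lowest library quality weight in limma, 0.158, where the other 8 libraries had weights of 0.461 to 4.11. Its Npc2 level lay between those of the other PILO libraries, and without it the PILO mean was 188 ± 32.9 CPM (SD, n = 2). PILO replicate 3 also had the lowest TMM factor, 0.83, and its Npc2 level of 206 CPM was 171 CPM by library totals alone.

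The gene was listed by the study for PILO against CTRL, the comparison of chronic epilepsy on a standard diet with health. Npc2 was 2.27-fold higher in PILO (log2 fold change 1.19, SE 0.18, edgeR quasi-likelihood fit of all 9 libraries). Of all 22283 transcripts tested, 13.2% were likewise higher in PILO with no overlap and 5.51% passed the threshold the study used, an unadjusted p under 0.01, in either direction. A log2 fold change above that of Npc2 was found for 2.61% of all transcripts and for 7 of the 2249 transcripts of like mean count. Left out in turn, no library moved the log2 fold change below 1.12 (without CTRL replicate 2) or above 1.29 (without PILO replicate 1). As the gene was chosen on this difference, no p-value is given.

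PILO+KD was compared with CTRL to see whether Npc2 in treated rats on the ketogenic diet stood apart from that of controls. Npc2 was 1.60-fold higher in PILO+KD (95% confidence interval 1.22 to 2.09, log2 fold change 0.68, SE 0.18), with 3 of 3 PILO+KD libraries above all CTRL libraries. The unadjusted p was 0.00244, which placed Npc2 at rank 52 of 22283 transcripts, but after Benjamini-Hochberg adjustment over all transcripts it did not pass (edgeR quasi-likelihood test, adjusted p 0.986, n = 3 per group). In this comparison 0% of transcripts passed after adjustment, 0.92% had p under 0.01 before adjustment and 4.65% were higher in PILO+KD with no overlap. Thus 0 transcripts passed by this test, with 803 under 0.05 before adjustment. Evenly spread p-values and random orders of the libraries would give shares at least as large as those above. The rank of 52 and the lack of overlap are therefore no evidence of a difference by themselves. DESeq2 called 28, the edgeR exact test 37 and limma with library quality weights 8, and Npc2 was in none of these sets. Its adjusted p was 0.103 with DESeq2, 0.232 with the edgeR exact test and 0.0675 with limma and quality weights, and its range over the alternatives was 0.0675 to 1.00. The exact two-sided permutation p was 0.1, the smallest that 3 against 3 libraries can give. Among the 2249 transcripts of like mean count, 7 had a larger log2 fold change. The CTRL libraries, which took part in the choice of the gene, enter this comparison as well.

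PILO+KD was compared with PILO to ask whether Npc2 differed with the diet among pilocarpine-treated rats. The study reports fewer seizures per week in rats on the diet, so diet and seizure frequency cannot be told apart in this comparison. The PILO level was 1.42-fold that of PILO+KD (95% confidence interval 1.09 to 1.86), a log2 fold change of -0.51 for PILO+KD against PILO (SE 0.18), and 3 of 3 PILO+KD libraries lay below all PILO libraries. With limma and library quality weights the log2 fold change was smaller, at -0.30 (SE 0.14). The unadjusted p was 0.0138 and Npc2 did not pass over all transcripts (edgeR quasi-likelihood test, adjusted p 0.624, range over the alternatives 0.309 to 1.00, n = 3 per group). Here too 0% of transcripts passed at an adjusted p under 0.05, while 7.19% (1602 transcripts) had an unadjusted p under 0.05 and 6.52% were lower in PILO+KD with no overlap. DESeq2 called 22 transcripts, the edgeR exact test 27 and limma with library quality weights 0, Npc2 not among them. The exact two-sided permutation p was again 0.1. A lower log2 fold change than that of Npc2 was found for 190 of the 2249 transcripts of like mean count (8.45%). The PILO libraries had taken part in the choice of the gene.

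**Figure D2:**
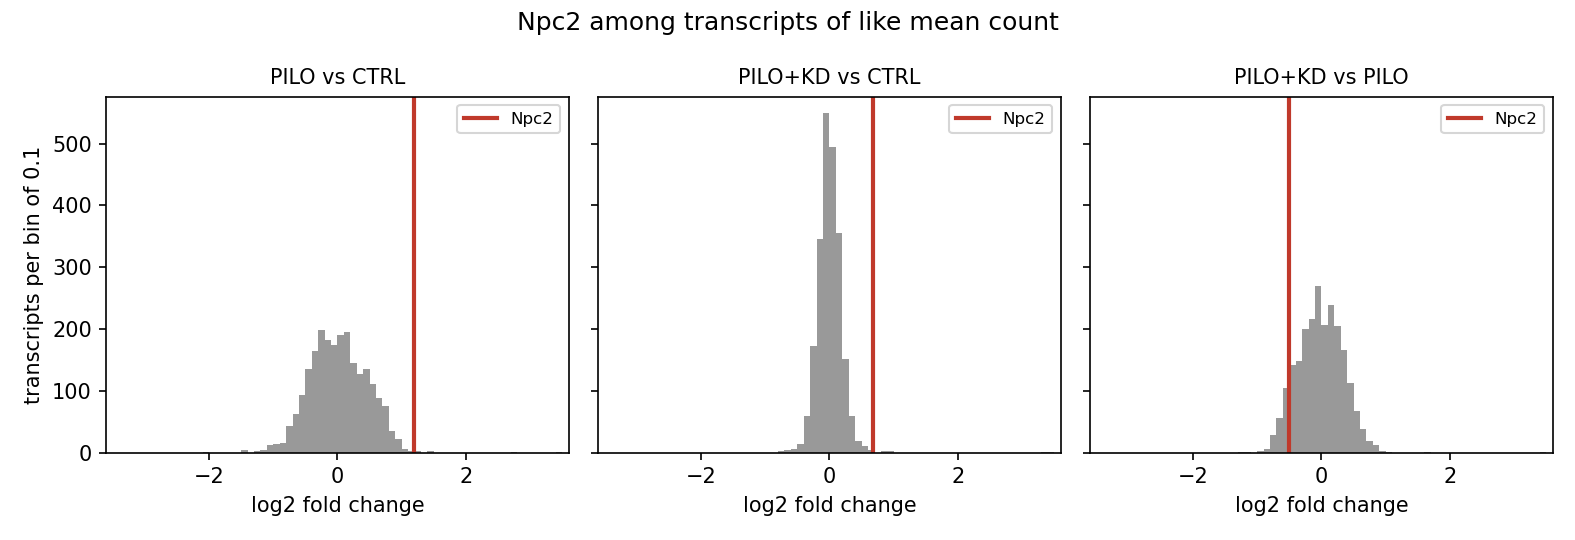
Histograms of the log2 fold changes of the 2249 transcripts whose mean count was within 2-fold of that of Npc2, in bins of 0.1 (values past the ends of the axis are pooled in the end bins), with Npc2 as a red line, in each of the 3 comparisons. Npc2 lies at 1.19 for PILO vs CTRL and at 0.68 for PILO+KD vs CTRL, with 7 transcripts beyond it in each, and at -0.51 for PILO+KD vs PILO, with 190 transcripts beyond it.

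On a log2 axis on which the CTRL mean is 0 and the PILO mean is 1, PILO+KD replicates 1 to 3 lay at 0.595, 0.408 and 0.709 (mean 0.571 ± 0.152, SD, n = 3). The CTRL libraries lay between -0.121 and 0.0953 and the PILO libraries between 0.806 and 1.11. Each PILO+KD library therefore lay in the gap between the other groups, PILO+KD replicate 3 nearest to PILO and PILO+KD replicate 2 nearest to CTRL. Both ends of this axis are set by the libraries on which the gene was chosen. Among the 8 study genes that were higher in PILO than in CTRL, the mean place of PILO+KD ran from 0.307 for Ndufa2, a subunit of respiratory complex I, to 0.990 for Mthfs, an enzyme of folate metabolism.

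**Figure D3:**
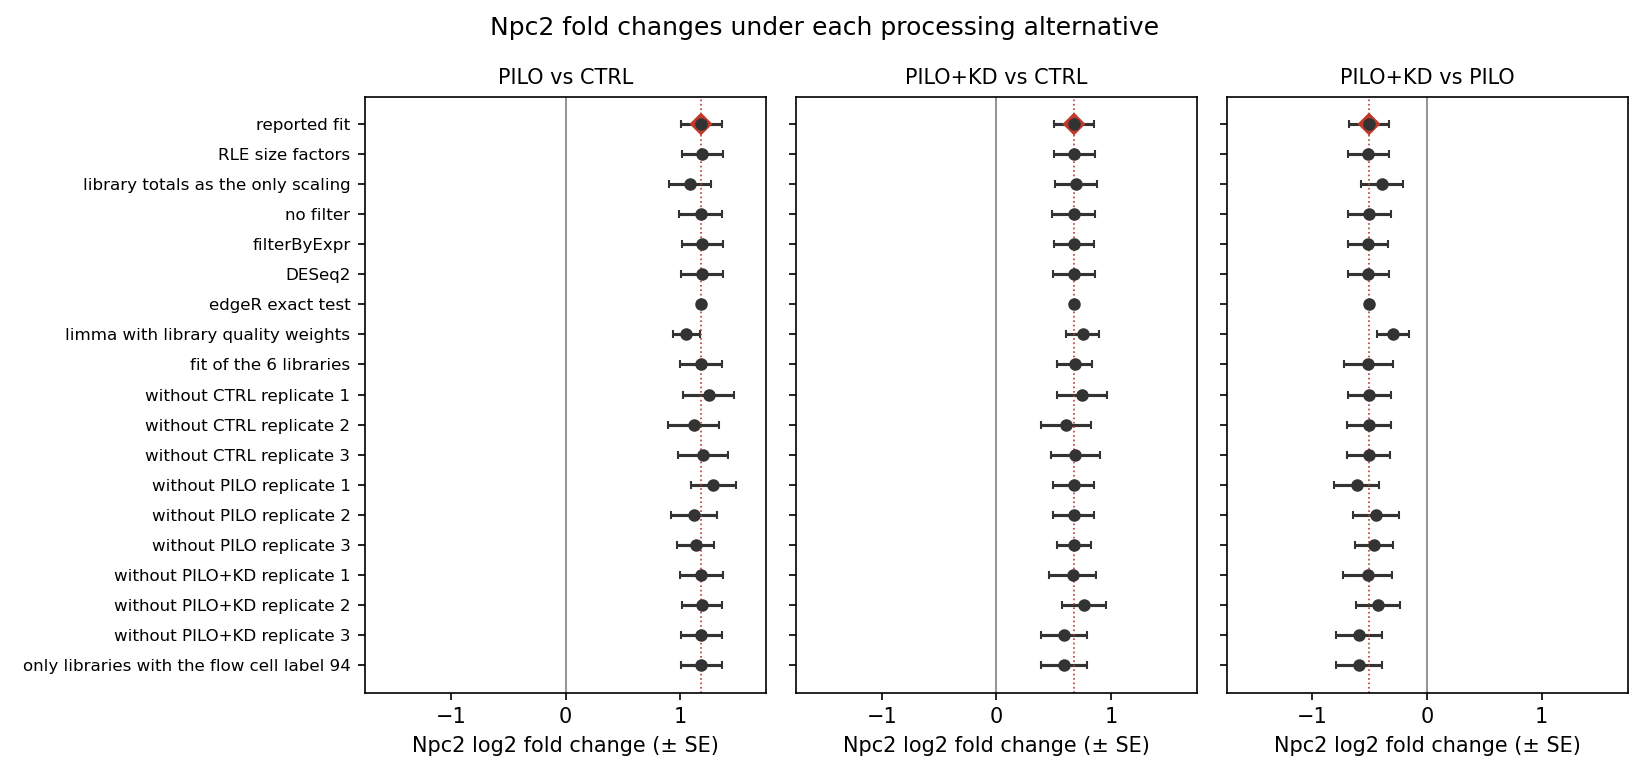
Npc2 log2 fold change (± SE, on a linear axis with 0 marked) in the 3 comparisons, for the reported fit (red diamond) and each of 18 alternatives, among them other scalings, filters, tools and fits without 1 library (the last 2 are the same fit). No SE is drawn for the edgeR exact test. The values keep their sign throughout, from 1.05 to 1.29 for PILO vs CTRL, from 0.59 to 0.76 for PILO+KD vs CTRL and from -0.61 to -0.30 for PILO+KD vs PILO.

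In these libraries cell types could be checked only through the genes that the study names. They include Gfap, the intermediate filament of astrocytes, and 5 neuronal channel and receptor genes (Kcna1, Kcna2, Scn8a, Gabrd and Cacng2). All 6 were counted in every library, with at least 7859 counts of Gfap and 41 of each neuronal gene. Markers of microglia, oligodendrocytes and vessels, and of the hippocampus itself, were not analysed here. In other rats, killed earlier after status epilepticus, the study counted neurons under the microscope. It reports fewer neurons in some hippocampal fields of both pilocarpine groups than in controls, and no difference in others. In whole tissue, more cells that contain Npc2 mRNA and more Npc2 mRNA per cell cannot be told apart.

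Gfap had its lowest group mean in CTRL and its highest in PILO, as Npc2 did, but its libraries ranked differently. It lay at 704, 526 and 770 CPM in CTRL replicates 1 to 3, at 2632, 834 and 1786 CPM in PILO+KD and at 2006, 2853 and 1543 CPM in PILO, so that the PILO+KD and PILO libraries overlapped. PILO+KD replicate 2 was the lowest of its group for both genes. PILO+KD replicate 1 had more Gfap than 2 of the PILO libraries while its Npc2 level was below all of them. The ratio of Gfap to Npc2 counts within a library was 6.83 to 8.88 in CTRL, 7.48 to 13.5 in PILO and 7.03 to 19.0 in PILO+KD.

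The summed level of the 5 neuronal genes went the other way. It was 140 to 182 CPM in CTRL, 115 to 140 CPM in PILO+KD and 43.7 to 100.3 CPM in PILO. The PILO libraries lay below all others, while CTRL replicate 1 and PILO+KD replicate 2 had nearly the same sum, and each of the 5 genes had its highest group mean in CTRL and its lowest in PILO. PILO replicate 3 had the lowest sum, 43.7 CPM, against 100.3 and 96.6 CPM in PILO replicates 1 and 2, while its Npc2 level of 206 CPM was not the highest of the group. These genes had been picked by the study on the same libraries. The part of astrocytes and neurons in the Npc2 difference was not tested.

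To see which profiles ran most alike, Pearson's r of log2 CPM with Npc2 was taken over the 9 libraries, which share the group differences that chose the gene, so that r is given as a description. Of 19514 other transcripts with a mean of at least 20 counts, 92 had an r of at least 0.9 and 91 an r of -0.9 or less, and the median was -0.02. The transcripts most like Npc2 were ENSRNOT00000007044 (r 0.98), at 4.83 ± 0.575 CPM in CTRL, 11.6 ± 2.16 in PILO+KD and 17.5 ± 3.05 in PILO (SD, n = 3 each), and ENSRNOT00000028732 (r 0.98), at 118 ± 9.49, 181 ± 17.9 and 209 ± 16.8 CPM. The most opposite ones were ENSRNOT00000005647 (r -0.99), at 28.5 ± 0.689 CPM in CTRL, 25.5 ± 1.12 in PILO+KD and 23.9 ± 1.09 in PILO, and ENSRNOT00000024323 (r -0.98), at 23.7 ± 0.737, 16.4 ± 2.29 and 13.0 ± 0.391 CPM. The first of these differed little in size between the groups, with a log2 fold change of -0.25 in PILO vs CTRL, although its libraries followed Npc2 closely in reverse.

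Among the other 23 study genes, 7 had a positive r with Npc2, and these were the 7 that were also higher in PILO. Most alike were Gadd45a (r 0.92), a stress-induced gene linked to DNA demethylation, and Apobec1 (r 0.87), followed by Tgif1 (0.87) and Gfap (0.86). Most opposite were Scn4b (r -0.95), a sodium channel subunit, and Itpr1 (r -0.93), the calcium release channel gated by inositol trisphosphate.

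A second likeness left the group differences out. When each library was expressed as its deviation from its own group mean, r with Npc2 over the 9 libraries was -0.91 for Scn4b, -0.65 for Itpr1, 0.79 for Gadd45a, 0.54 for Gfap and 0.18 for Apobec1. Scn4b, Itpr1, Gadd45a and Apobec1 had been named for their r over these same libraries, which already contains the deviations, so these values are no separate evidence. Scn4b lay at 16.5, 29.1 and 13.0 CPM in PILO+KD replicates 1 to 3, highest where Npc2 was lowest and lowest where Npc2 was highest. In PILO replicates 1 to 3 it lay at 10.0, 5.66 and 4.56 CPM, again highest in the library with the least Npc2. In CTRL replicates 1 to 3 it lay at 25.7, 33.0 and 34.3 CPM and was not highest in the library with the least Npc2, replicate 2. Gadd45a, at 7.64, 4.43 and 12.2 CPM in PILO+KD replicates 1 to 3, followed the order of Npc2 in that group. Of the 19514 transcripts, 103 had a deviation r of -0.8 or less and 116 one of at least 0.8.

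**Figure D4:**
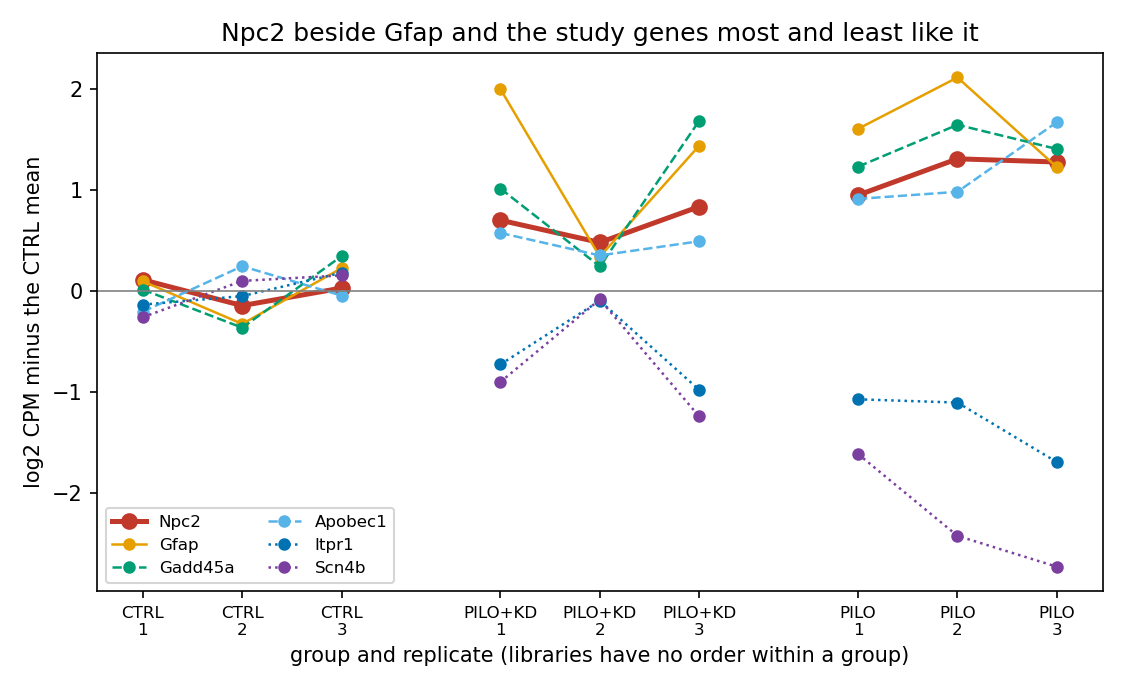
Log2 CPM minus the CTRL mean (linear axis) in each of the 9 libraries for Npc2, for Gfap and for the study genes with the highest (Gadd45a, Apobec1) and lowest (Itpr1, Scn4b) r with Npc2. Lines join the libraries of a group for the eye only. In PILO+KD replicate 2 all 6 genes lie nearest to the CTRL mean within their group, and Npc2 spans a narrower range in PILO+KD than Gfap does.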

How the data were processed

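Poly-A mRNA of dorsal hippocampus was sequenced from 9 rats. According to the study's methods, single reads of 36 bp were mapped by the authors with BWA 0.5.9 (rat genome RN4), and a script of their own summed the tags over each transcript of Ensembl 66. What they deposited are these raw counts, and the handling of strand and of shared reads was not given in the sources used here. Groups came from the labels, and replicate numbers only name a library. The file gives no symbols and its identifiers did not match the RefSeq table, so genes are named only where the study pairs them with a transcript, and 1 such gene is not reported here. Lists of lysosomal, cholesterol and further cell type genes could therefore not be run.

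Transcripts with a total of at least 55 counts (the 30th centile) were kept, 22283 of 31786 (70.1%). All 9 libraries entered 1 fit with 3 group means in edgeR 4.0.16 (R 4.3.3), with TMM scaling and robust quasi-likelihood F-tests. Two-sided p-values were adjusted over all 22283 transcripts (Benjamini-Hochberg, threshold 0.05). SEs were derived from the F statistic. CPM were TMM-scaled, with a prior count of 2 where logged. Alternatives were RLE factors, library totals, no filter, filterByExpr, DESeq2 1.42.0, the edgeR exact test, limma 3.58.1 with library quality weights, fits of 6 libraries, fits without each library, 1 flow cell label only and, for the log2 axis, a prior count of 0.5. The test was tested on simulated data. By rule, the transcripts named for likeness were the 2 with the highest and the 2 with the lowest r, among all transcripts and among the study's genes, and Gfap; other study genes and values were named after seeing them. The gene and the lists were chosen with earlier results of these data known. The quasi-likelihood p-values rest on the spread between animals within groups (3 animals per group), shared over the 3 groups and drawn toward that of other transcripts. For Npc2 this gave 12.0 degrees of freedom, against 6 residual ones.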

Additional observations from a re-analysis of the deposited data

How the results depend on the processing

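The Npc2 log2 fold changes kept their sign in all 18 alternatives of each comparison (2 of them, without PILO+KD replicate 3 and within 1 flow cell label, are the same fit), and Npc2 reached an adjusted p under 0.05 in 0 of them for PILO+KD vs CTRL and in 0 for PILO+KD vs PILO. Leaving out each library in turn gave 1.12 to 1.29 for PILO vs CTRL, 0.59 to 0.76 for PILO+KD vs CTRL and -0.61 to -0.43 for PILO+KD vs PILO. The value nearest to 0 for PILO+KD vs PILO was -0.30, with limma and library quality weights, followed by -0.39 when libraries were scaled by their totals alone. Scaling by totals put the median of all transcripts in this comparison at 0.10. The place of PILO+KD between CTRL (0) and PILO (1) was 0.502 to 0.647 without each library. Within the flow cell label of 8 libraries, that is without PILO+KD replicate 3, the Npc2 values were 1.19, 0.59 and -0.59. Where a group was left with 2 libraries, its spread was taken from the fit of all groups. No paired analysis was possible because the replicate numbers follow the order of deposition and pair no animals.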
